A study of Mus musculus with 24 samples.

Results

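The array carried 16463 mouse probes on 16655 spots, and 12 of these probes were printed on 17 spots each. They were chosen by their names in the spot list, which begin with M2000, and by that number of spots, a rule that uses no measured value. Together they filled 204 spots. The files give the 12 by probe ID only, with no sequence and no gene, and the gene table at hand held none of the IDs, so each is named by its ID. They are M200000829, M200001318, M200001732, M200003425, M200004477, M200006376, M200006590, M200009348, M200012700, M200013499, M200016205 and M200016219.

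RNA came from hearts of C57BL/6 mice that had 40 min of coronary occlusion followed by 60 min of reperfusion (IR). Besides these periods, NonIschemic was the region of IR hearts outside the occluded territory, without conditioning, and the other groups were the ischemic region of conditioned hearts. Conditioning was 3 brief occlusions of 1 min, each followed by 1 min of flow, and it was placed 10 min ahead of the long ischemia (PreC), at 1 min of reperfusion (PostC) or at 30 min of reperfusion (Post30). Each group had 6 of the 24 arrays, namely 3 replicate numbers in 2 dye orientations, and the other channel of every array held IR RNA from the occluded region. No heart without an occlusion was among the groups, and the labels do not say whether a replicate number was 1 heart or a pool, so the p-values measure the spread between these RNA samples, which may be technical.

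In ischemic conditioning, short cycles of occlusion and flow placed before a long coronary occlusion or early in reperfusion reduce the injury of the heart muscle. The cycles act through receptors and kinases of the muscle cells that converge on the mitochondria. Reperfused heart muscle also raises stress and inflammatory transcripts and takes up blood cells, so whole-tissue RNA mixes several cell types, and fewer cells of a type cannot be told apart from less RNA per cell. A spotted 2-colour array reads the ratio of 2 RNAs at each probe, and a probe printed many times shows how far that reading varies from place to place on 1 slide.

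The 17 spots of each of the 12 probes stood in 2 runs of 8 consecutive spot numbers, 1520 numbers apart, plus 1 lone spot. An intensity is the deposited foreground value of a spot, on a scale that reached 1356 in these files. A spot counted as detected on an array when its foreground minus local background exceeded the 95th percentile (0.95 quantile) of the 481 empty spots in the same channel. By this rule 37.8% of mouse spots were detected in the channel of the group's RNA and 43.2% in the IR channel. Brightness sets no order of transcript amount between probes, since each probe binds and labels differently.

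M200016219 was the brightest of the 12, with a median intensity of 311 in the group channel and 402 in the IR channel over its spots above the empty level. Next came M200006376 (175 and 183), M200000829 (146 and 167), M200001732 (144 and 158) and M200009348 (119 and 132), with the group channel given before the IR channel. M200016205 (81.3 and 105), M200003425 (77.9 and 88.2) and M200012700 (44.7 and 106) followed. These 8 probes were far above the 12 negative-control probes of the array, whose medians were 2.57 in the group channel and 2.21 in the IR channel. M200013499 (11 and 13.1) and M200006590 (9.64 and 12.3) were dimmer. M200001318 (5.14 and 5.25) and M200004477 (3.64 and 3.65) lay nearest to the empty spots, at 2.18 and 1.98. M200012700 had the lowest ratio of the group-channel median to the IR median among the 12.

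Not every copy of a probe gave a signal. Of the 204 spots, 164 were detected in the IR channel on all 24 arrays, and 17 were at the level of empty spots, meaning detected on fewer than 12 arrays. These 17 silent spots belonged to 9 of the 12 probes, with 3 each in M200001318 and M200009348, 2 each in M200001732, M200004477, M200013499 and M200016205, and 1 each in M200003425, M200006376 and M200006590. M200000829, M200012700 and M200016219 had 0. Of the other 16451 mouse spots, 57% were silent by the same rule. Run 1 held 4 of the silent spots, run 2 held 11 and the lone spots 2.

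Silent and bright copies of 1 probe stood side by side. The spot with the 14th number of M200006376 had a median intensity of 2.14 in the group channel and 1.78 in the IR channel, where it was 125-fold below that probe's median spot. M200001732 had a spot at 1.71 in the group channel and 1.53 in the IR channel, 103-fold below its median spot in the IR channel. The lone spot of M200009348 was 81.4-fold below, and 1 spot of M200016219, the brightest probe, was 192-fold below at an IR median of 2.27 although it was detected on 14 of 24 arrays. In all, 17 spots in 8 probes were more than 8-fold below the median spot of their probe in the IR channel, of which 11 were at the empty level and 2 were detected on all 24 arrays.

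The pattern of bright and dim copies was much alike from slide to slide. The log2 intensities of the 17 spots of a probe correlated between arrays with a median r of 0.994, and the medians of single probes lay between 0.955 for M200004477 and 0.999 for M200016219. These points share the print and the spot positions, so the correlation is a description. The lowest values for a pair of arrays were 0.189 in M200000829, 0.227 in M200012700 and 0.31 in M200003425.

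On 1 array some spots were far dimmer than on the others. Of 4896 values of a member spot on an array, 10 were more than 8-fold below the same spot's own median over the arrays, and all 10 were on the PreC replicate 1 array with PreC RNA in Cy5. They were 10 consecutive spot numbers of run 1, of which 7 belonged to M200003425 and 3 to M200000829. None of them (0 of 10) carried a quality mark in the file. Without them the PreC replicate 1 log2 ratio of M200003425 was -0.010, against -0.08 with them, and that of M200000829 was -0.40, against -0.41.

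The log2 ratio is the group's RNA over IR RNA, after background correction and loess normalization of each array. Its direction is likely and not settled, and if the file channels were numbered the other way every sign here would turn. In the file channel taken as IR, levels varied less over the 4 groups than in the other channel for 12 of 12 of these probes and for 75.5% of all mouse probes, and the Cy3 channel of the labels had the higher background on 24 of 24 arrays. The background bears on the direction only if Cy3 background is usually the higher one, which was not tested. The authors' deposited table, with its sign turned, correlated with the ratios tested here with r of 0.428 to 0.81 per array.

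The spread of the ratios over the 17 spots depended on the background correction and the normalization. The SD of the log2 ratio over the spots of 1 probe on 1 array averaged 0.0904 in M200001732, the narrowest, and 0.56 in M200012700, the widest. The median over the 12 probes was 0.115 with all spots and 0.0988 without the silent ones. It was 0.323 with plain background subtraction and 0.276 with median centring in place of loess. M200016219 (0.209) and M200016205 (0.143) came after M200012700, and the other 8 probes lay between 0.0996 (M200006376) and 0.125 (M200006590).

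Printing a probe 17 times did little to narrow its spread between replicates. If independent error between spots were the only source of spread, the mean of 17 spots would vary 4.12 times less than 1 spot. Differences between RNA samples are shared by all 17 spots, and averaging over spots leaves them in place. Whether the spot errors were independent was not tested. Here the SD between replicates of a group for a single spot was 1.03 (M200000829 and M200016219) to 1.5 (M200001318) times that of the 17-spot mean. The residual SD between replicates of the 17-spot means had a median of 0.103 over the 12 probes, against 0.107 over all mouse probes. It was 0.0511 in M200004477, the lowest, and 0.221 in M200016219, the highest but for M200012700.

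M200012700 varied most. Its residual SD between replicates was 1.44, which ranked 4 of 16463 mouse probes. In NonIschemic tissue its log2 ratios over IR were -1.02, -3.87 and -1.84 in replicates 1, 2 and 3. In PreC they were -1.90, -1.27 and -2.18, in PostC 0.10, -2.43 and 1.61, and in Post30 -0.31, -1.41 and 1.26. All 6 NonIschemic and PreC values were below 0, whereas the PostC and Post30 values lay on both sides of it. The dye orientations of a replicate differed by at most 0.416, against ranges over the replicates of a group of 0.917 (PreC) to 4.05 (PostC).

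The replicate numbers of M200012700 differed in both channels. In replicate 1 its median spot intensity on the Cy5 and Cy3 arrays was 139 and 79.1 in NonIschemic RNA, 31.7 and 51 in PreC, 181 and 182 in PostC and 146 and 123 in Post30, against 132 to 264 in the IR channel of these 8 arrays. In replicate 2 the values were 9.95 and 6.77 in NonIschemic RNA, 65.9 and 49.7 in PreC, 26.2 and 20.9 in PostC and 97 and 54.3 in Post30, against 131 to 236 in the IR channel. In replicate 3 they were 6.69 and 5.44 in NonIschemic RNA, 4.4 and 3.86 in PreC, 118 and 99.2 in PostC and 106 and 74.8 in Post30, against 27.5 to 47 in the IR channel. The IR signal of replicate 3 was thus lower than that of the other numbers on every one of its 8 arrays, and the PostC and Post30 signals of that number were above it. On the normalized log2 scale the IR level of M200012700 in replicate 3 differed from the mean of replicates 1 and 2 by -2.24, which is 4.72-fold lower and ranked 3 among all mouse probes by size, where 45 probes (0.276%) differed by more than 2-fold.

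The lower spread of the IR channel over the groups is part of the basis on which that channel was taken as IR, so for M200012700 it is given as a description only. The SD of its level over the 4 groups, at 1 number and 1 dye orientation, was 1.53 log2 units in the group channel and 0.221 in the IR channel. Over all mouse probes the medians were 0.16 and 0.132. The ratio of highest to lowest intensity over the 8 arrays of a number was 5.74 (replicate 1), 14.3 (replicate 2) and 30.6 (replicate 3) in the group channel, against 2, 1.8 and 1.71 in the IR channel.

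Most copies of M200012700 gave this pattern. Set against the median spot over the arrays, 15 of its 17 spots had slopes of 0.828 to 1.11. That median is taken over the same 17 spots and slides, so the slopes describe the copies and are no separate test. The spot with the 9th number, the first of run 2, had a slope of -0.0251 (r = -0.111), with mean log2 ratios of 0.17 in NonIschemic, 0.13 in PreC, -0.20 in PostC and -0.061 in Post30, although it was detected on all 24 arrays at a median of 13.2 in the group channel and 15.2 in the IR channel. The 14th spot had a slope of 0.454 at an IR median of 139. These 2 spots account for the largest mean deviations of any copy, 1.22 and 0.62 log2 units.

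Single-spot probes with the pattern of M200012700 were looked for after its values had been seen, by the correlation of log2 ratios over the 12 replicates of the 4 groups. Of 16297 other mouse probes, 8 had r above 0.9 and 0 had r below -0.9, with a median of -0.0084. M200012783 was the most alike (r = 0.99, Spearman's rho = 0.972), and r was 0.977 without the 2 replicates farthest from the median. Its mean log2 ratios were -1.86 in NonIschemic, -1.57 in PreC, -0.20 in PostC and -0.11 in Post30, and its IR level was also lower in replicate 3, by a log2 difference of -2.06. M200001141 came next (r = 0.983, rho = 0.972). The other 11 multiply printed probes had r between -0.301 and 0.661 with M200012700.

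NonIschemic over IR compares the regions of the same kind of heart. With limma and Benjamini-Hochberg adjustment over all mouse probes, 0 of the 12 passed an adjusted p of 0.05, as did 0% of all probes. At an unadjusted p under 0.05, 3 of the 12 were lower and 0 higher, against 12.5% of all probes in either direction. M200012700 had the largest mean, -2.24 ± 1.46 (SD, n = 3, limma SE 0.62, adjusted p = 0.166). M200016219 averaged -0.27 ± 0.37, with -0.0048, -0.69 and -0.12 in its replicates, so that replicate 2 lay apart from the others (limma adjusted p = 0.281). M200006590 averaged -0.15 ± 0.074 with all 3 replicates below 0 (limma adjusted p = 0.289). In all, 5 of the 12 had every replicate below 0 and 0 had every replicate above it, against 16.5% and 16.6% of all probes. The median log2 ratio was -0.10 over the 12 and 0.00098 over all probes. Without NonIschemic replicate 2 the median of the 12 was -0.039 and 0 of 12 had an unadjusted p under 0.05, while without NonIschemic replicate 1 they were -0.15 and 5. A fixed block on the replicate number let M200012700 pass (limma adjusted p = 0.0181, 1 of 12, with 386 of 16463 probes called in that fit). Such a block removes what a number shares from the error term only, not from the mean tested, and a random block let 0 pass.

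PreC over IR asked what cycles ahead of ischemia changed in reperfused tissue. Again 0 of 12 passed the adjusted test in limma, as did 0% of all probes. At an unadjusted p under 0.05, 2 of 12 were lower and 0 higher, against 6.84% of all probes in either direction. M200012700 averaged -1.78 ± 0.47 (SD, n = 3, limma SE 0.62, adjusted p = 0.719), the smallest spread of this probe in any group. M200006590 averaged -0.13 ± 0.086 (limma adjusted p = 0.719). The brightest probe, M200016219, had 0.27, 0.13 and 0.076, mean 0.16 ± 0.098 (limma adjusted p = 0.824). M200006376 had 0.26, 0.25 and -0.11, so its replicates lay on both sides of 0. Every replicate was below 0 in 2 of the 12 and above it in 2, against 15.3% and 14% of all probes. The median was -0.014 over the 12 and -0.00064 over all probes. With each array centred on its median in place of loess it was -0.20 over the 12 and -0.010 over all probes, and 7 of 12 had an unadjusted p under 0.05 (0 adjusted, 1 of 16459 probes). The unadjusted count was 1 of 12 without PreC replicate 1 or PreC replicate 2, and 3 without NonIschemic replicate 2. Fitted on the 3 PreC replicates alone, 1 of 12 passed (M200012700, limma adjusted p = 0.00159) with 12 of 16459 probes, in a fit that does not take in the wider spread of this probe in the other groups.

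PostC over IR asked the same of cycles at the start of reperfusion, and it held the most members with low unadjusted p. In limma 0 of 12 passed the adjusted test, as did 0% of all probes. At an unadjusted p under 0.05, 5 of 12 were lower and 0 higher, against 13.6% of all probes in either direction. M200013499, singled out after its values were seen, had -0.23, -0.35 and -0.17, mean -0.25 ± 0.095 (SD, n = 3, limma SE 0.063, adjusted p = 0.101). M200016219 had -0.33, -0.27 and -0.44, mean -0.34 ± 0.088 (limma SE 0.10, adjusted p = 0.156). M200016205 had -0.20, -0.49 and -0.29, mean -0.33 ± 0.15 (limma SE 0.10, adjusted p = 0.169). All 9 of these values were below 0. These probes had the lowest adjusted p of the 12 and are not replicates of each other, so the count is a description only. M200003425 averaged -0.17 ± 0.11 (limma adjusted p = 0.204) and M200006590 -0.15 ± 0.11 (limma adjusted p = 0.253). M200012700 averaged -0.24 ± 2.04 and cannot be placed above or below IR.

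In PostC every replicate was below 0 in 5 of the 12 probes and above it in 2, against 17.5% and 16.2% of all probes. The 2 above were M200001318, which averaged 0.10 ± 0.090, and M200004477, the dimmest, with 0.082, 0.078 and 0.042. The median was -0.087 over the 12 and -0.00012 over all probes. It was -0.036 over the 12 without PostC replicate 2 and -0.15 without PostC replicate 3, and the unadjusted count was 3 of 12 without PostC replicate 1. A fixed block on the replicate number gave 2 of 12 past the threshold (M200013499 and M200016205, lowest limma adjusted p = 0.0101), in a fit that called 381 of 16461 probes. Leaving out NonIschemic replicate 2, which enters only through the shared spread, gave 2 (M200013499 and M200016219, lowest limma adjusted p = 0.0321) and 238 of 16461 probes. Each array centred on its median in place of loess gave 3 (M200013499, M200016205 and M200016219, lowest limma adjusted p = 0.0098) and 513 of 16461 probes, with the median of the 12 at -0.23 and that of all probes at -0.0022.

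Post30 over IR asked what the same cycles changed when delayed. In limma 0 of 12 passed the adjusted test, against 0.0729% of all probes (12 of 16461), and 0 of 12 had an unadjusted p under 0.05, against 7.05%. M200016205 had 0.030, -0.42 and -0.25, mean -0.21 ± 0.23 (SD, n = 3), and M200016219 had 0.11, -0.12 and -0.31, mean -0.10 ± 0.21. M200012700 averaged -0.15 ± 1.34, with replicate 3 above 0 and the others below it. Every replicate was below 0 in 2 of the 12 probes, M200006590 and M200013499, and above it in 0, against 14.9% and 13.5% of all probes. The smallest limma adjusted p of a member was 0.731. Without Post30 replicate 1 or without NonIschemic replicate 2 the unadjusted count was 1 of 12. The median was -0.030 over the 12, against -0.00098 over all probes. Median centring in place of loess gave a median of -0.24 over the 12 and -0.012 over all probes, 7 of 12 at an unadjusted p under 0.05 and 1 past the adjusted threshold (M200016205, limma adjusted p = 0.034), with 179 of 16461 probes past it.

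M200001732, the narrowest over spots, and M200004477, the narrowest between replicates, had means near 0 in every group. M200001732 averaged 0.011 ± 0.033 in NonIschemic tissue (SD, n = 3 in each group), -0.064 ± 0.094 with PreC, -0.025 ± 0.091 with PostC and 0.036 ± 0.052 with Post30. Its 95% interval from limma reached from -0.10 to 0.12 in NonIschemic. Its replicates 1, 2 and 3 were -0.027, 0.034 and 0.026 in NonIschemic, -0.15, -0.081 and 0.037 in PreC, -0.13, 0.0061 and 0.046 in PostC and 0.041, -0.019 and 0.084 in Post30, on both sides of 0 in each group. M200004477 averaged -0.020 ± 0.064 in NonIschemic, 0.043 ± 0.027 in PreC, 0.067 ± 0.022 in PostC and 0.048 ± 0.072 in Post30. Its replicates were -0.052, 0.053 and -0.062 in NonIschemic, 0.065, 0.012 and 0.051 in PreC and -0.034, 0.078 and 0.099 in Post30, besides the PostC values above, at intensities close to those of empty spots. M200009348, a bright probe with 3 silent copies, was nearest to 0 in PreC (0.00095 ± 0.14), at -0.013 ± 0.093 in PostC and 0.0035 ± 0.047 in Post30, and at -0.11 ± 0.082 in NonIschemic. Outside M200012700, the largest absolute group mean of the 12 was 0.343.

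Some of the 12 stood apart in the same replicate number of several groups. M200000829 had 0.34 in replicate 3 of both PostC and Post30, against -0.16 and -0.10 in replicates 1 and 2 of PostC and -0.039 and -0.065 in those of Post30. In NonIschemic tissue its replicate 3 was the lowest, at -0.20 against -0.066 and -0.13, and in PreC it was the highest, at 0.081 against -0.41 and -0.082. M200006376 had -0.11 in PreC and -0.12 in PostC in replicate 3, while replicates 1 and 2 were between 0.14 and 0.26 in these groups. In NonIschemic tissue its replicate 3 was the highest, at 0.048 against -0.015 and 0.033. In Post30 its replicate 3 was -0.067, close to replicate 1 at -0.059, with replicate 2 at 0.070. M200016205 was lowest in replicate 2 in all 4 groups (-0.48, -0.20, -0.49 and -0.42 in NonIschemic, PreC, PostC and Post30). Its replicates 1 and 3 were 0.069 and -0.041 in NonIschemic and 0.15 and -0.036 in PreC, besides the PostC and Post30 values above. Over all probes, deviations from the group mean correlated between samples of the same number in 9 of 9 pairs of conditioning groups (r = 0.216 to 0.396). In the 9 pairs with NonIschemic r was 0.00956 to 0.379, and over 0.1 in 6 of them.

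Differences between the protocols were tested in the same fit. For PostC minus PreC, 0 of 12 passed the adjusted test in limma, as did 0% of all probes. At an unadjusted p under 0.05, 2 of 12 were lower and 0 higher, against 8.19% of all probes in either direction. M200016219 averaged -0.34 in PostC and 0.16 in PreC, a difference of -0.50 (limma SE 0.15, adjusted p = 0.563). M200013499 averaged -0.25 in PostC and 0.046 in PreC, a difference of -0.29 (limma SE 0.089, adjusted p = 0.563). For Post30 minus PreC 0 of 12 passed, as did 0% of all probes (unadjusted 0 of 12, against 4.67%), and for Post30 minus PostC 0 of 12 passed, against 0.00608% (unadjusted 0 of 12, against 4.65%). The smallest limma adjusted p of a member was 0.973 in the first of these and 0.963 in the second.

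Conditioned tissue was also set against the NonIschemic region, in comparisons added after the data were seen, which share the IR channel RNA. With limma 0 of 12 passed for PreC, PostC and Post30 minus NonIschemic, as did 0% of all probes in each. At an unadjusted p under 0.05 there was 1 of 12 in each, all higher in conditioned tissue. Over all probes the shares were 6.49%, 6.32% and 4.87% in either direction. The member was M200016219 in PreC minus NonIschemic (0.16 against -0.27, a difference of 0.43, limma SE 0.15, adjusted p = 0.756). In PostC and Post30 it was M200012700, with differences of 2.0 and 2.09 from NonIschemic (limma SE 0.88 each, adjusted p = 0.782 and 0.98).

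Any conditioning over IR takes the mean of PreC, PostC and Post30. In limma 0 of 12 passed the adjusted test, against 0.972% of all probes (160 of 16456). At an unadjusted p under 0.05, 4 of 12 were lower and 0 higher, against 15.1% of all probes in either direction. M200006590 came nearest to the threshold at -0.12 (limma SE 0.033, adjusted p = 0.0913). It was below 0 in 12 of 12 replicates of the 4 groups, between -0.28 and -0.0034, which held for 95 of 16309 mouse probes (0.583%). This trait was picked out after the values were seen, and the 12 replicates are not independent signs. The share is over mouse probes of any brightness, silent ones included, so it is a description only. M200016205 followed at -0.19 (limma SE 0.059, adjusted p = 0.137, below 0 in 9 of 12 replicates of the 4 groups), then M200013499 at -0.097 (limma adjusted p = 0.218) and M200003425 at -0.076 (limma adjusted p = 0.292). The count of 4 was 2 without PreC replicate 2 or PostC replicate 2 and 6 without PostC replicate 3 or NonIschemic replicate 2. It was 3 without the 10 dim spots of 1 PreC array, 7 of them of M200003425. Without the silent spots it was 5. The main fit took replicates of the same number in the 3 conditioning groups as independent, although their deviations correlated (r = 0.216 to 0.396). Its SE for this mean may therefore be too small. With a random replicate block 0 of 12 passed, with 43 of 16456 probes called, and the smallest limma adjusted p of a member was 0.142. The fixed replicate block gave 1 of 12 past the adjusted threshold (M200016205, limma adjusted p = 0.00461) and 654 of 16456 probes. The authors' deposited log2 ratios, put through the same fit, gave 1 (M200006590, limma adjusted p = 0.029) and 1189 of 16456 probes. Median centring gave 7 of 12, all lower, with the lowest limma adjusted p at 0.000464, and 3619 of 16456 probes, and under it the median of the 12 was -0.23 and that of all probes -0.00059.

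More of these probes passed the test for the dye than for any protocol, but the tests differ in precision. The dye effect is the log2 ratio with the group's RNA in Cy5 minus that with it in Cy3, divided by 2, and it cancels in the means above. It was averaged over 12 replicates, and the mean of a protocol over 3. For M200004477 the limma SE was 0.014 for the dye and 0.047 for PostC over IR. The counts therefore do not compare the sizes of the effects. In limma, in a test added after the data were seen, 9 of 12 had a dye effect at an adjusted p under 0.05, all 9 brighter in Cy5, against 29.4% of all probes (4834 of 16463). M200016219 had 0.52 (limma SE 0.019, adjusted p = 9.09e-11), between 0.45 and 0.62 and positive in 12 of 12 replicates. In PreC replicate 1 its log2 ratio was 0.89 with PreC RNA in Cy5 and -0.35 with it in Cy3, and in PostC replicate 1 it was 0.24 and -0.89. M200000829 had 0.27 (limma SE 0.020, adjusted p = 4.4e-07), and the effect of M200012700 was 0.080 (limma adjusted p = 0.00711). M200001732, M200003425 and M200013499 did not pass, with effects of 0.016, -0.033 and 0.017. The median absolute dye effect was 0.0762 over the 12 and 0.0451 over all mouse probes. Of the mouse spots outside the 12 probes, 57% were silent, and neither comparison with all probes was matched for brightness. A dye effect particular to the 12 therefore cannot be read from them.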

How the data were processed

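Per the file headers, the deposited array files hold foreground and local background intensities of both channels and a quality mark per spot. The authors' deposited table holds log2 ratios with column medians of -0.013 to 0.00828. Set against the array files it is a normalized log2 ratio without background subtraction and with file channel 1, taken as IR, as numerator, so its sign was turned. Its normalization method stays unknown, and no source used here names the image or normalization software. All its columns had a sample (0 without one).

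Intensities were background-corrected with normexp and normalized by loess per array in limma 3.58.1 (R 4.3.3), with the 1009 control and empty spots at weight 0 and marked spots (2 to 25 per array) left out. The planned offset of 50 suits scanners reaching 65535. Intensities reached 1356, so it was scaled to 1.03. Spots of a probe and both dye orientations of a replicate were averaged, giving 12 replicates. Group means were fitted over all mouse probes (8 residual degrees of freedom) with Benjamini-Hochberg adjustment at 0.05, in 8 planned comparisons and 3 added ones. The ratio against 0 leaves out the spread of IR hearts. The fit was tested on simulated data with 200 changed probes.

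The probes were picked out by name and spot number, but this set, the tests and the lists were proposed with earlier results of these data known. Every replicate's values are given for the probe with the largest mean in each group, the brightest and dimmest, and those with the widest and narrowest spread over spots. Other single values were chosen after they were seen. The replicate numbers, from the labels, paired the conditioning groups (r = 0.216 to 0.396 in 9 of 9 pairs) and NonIschemic only in part (over 0.1 in 6 of 9 pairs). Alternatives were the background correction, offset, normalization, spot summary, variance moderation, blocks, filters, samples in the fit and leaving out each replicate. The number of arrays limits the precision.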

Additional observations from a re-analysis of the deposited data

How the results depend on the processing

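In the 3 comparisons between protocols and the 3 with NonIschemic, 0 of 12 passed an adjusted p of 0.05 in limma under every alternative run. In the others the count was above 0 as follows, with the count over all mouse probes in the same fit beside it. A fixed replicate block gave 1 (NonIschemic, 386 probes), 2 (PostC, 381) and 1 (any conditioning, 654), and a random replicate block gave 0 in all 11, at a consensus correlation of 0.0781. Treating the 24 arrays as samples with the extract pair as a random block gave 1 (NonIschemic, 519), 3 (PostC, 632) and 2 (any conditioning, 820). That fit applied the same consensus correlation of 0.194 to every probe. The NonIschemic call was M200012700, whose dye orientations differed by at most 0.416, against a range of 2.84 over its NonIschemic replicates. Its arrays were thus counted as more independent than they were. The PreC replicates fitted alone gave 1 (12). Median centring gave 3 (PostC, 513), 1 (Post30, 179) and 7 (any conditioning, 3619). No background subtraction and the authors' deposited ratios each gave 1 (any conditioning, 1184 and 1189). The unaltered fits called 0 probes in NonIschemic, PreC and PostC, 12 in Post30 and 160 for any conditioning. Leaving out 1 replicate gave 0 to 2 in PostC and 0 to 0 elsewhere. Leaving out silent, far dimmer or the 10 dim spots, chosen after seeing the data, changed no adjusted count. Under the offset of 50 the PreC mean of M200012700 was -0.80, against -1.78. The median SD over spots was 0.323 with plain subtraction and a floor of 0.1, and 0.276 with median centring, against 0.115. Under median centring the PostC means of M200016219 and M200016205 were -0.51 and -0.48, and the Post30 mean of M200016205 was -0.40. The cause was not tested. Signals near empty spots limit M200004477. Its Post30 mean was -0.25 on its first spot alone, a silent copy, against 0.048 over 17 spots and 0.073 without the silent ones.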
